A study of Drosophila melanogaster with 4 samples.

Results

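The fly mitochondrial genome encodes 22 tRNAs, and the 5 described here are the tRNAs for tryptophan, leucine, lysine, aspartate and glycine that lie on the plus strand between the mRNAs mt:nd2, mt:co1, mt:co2, mt:atp8/6, mt:co3 and mt:nd3. The rule that takes them uses their position and no measured value, and they are the entries mt:tRNA:Trp-TCA, mt:tRNA:Leu-TAA, mt:tRNA:Lys-CTT, mt:tRNA:Asp-GTC and mt:tRNA:Gly-TCC among 34917 counted entries, and all 5 had reads in every library. The study asked how loss of DmAngel, the fly homologue of the RNA terminal phosphatase ANGEL2, affects mitochondrial RNA processing and translation. Mitoribosome footprints were sequenced from 2 DmAngel KO and 2 control libraries of Drosophila melanogaster. Mitochondrial lysates of third-instar larvae were digested with RNase T1, monosomes were collected from a sucrose gradient, and the RNA protected or held in them was sequenced, so that tRNA reads came with the mRNA footprints.

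The DmAngel KO libraries are labelled Angel-/- and the control libraries Angel+/+. The knockout line carries a CRISPR/Cas9 deletion in DmAngel made with a pair of guide RNAs and germline nos-Cas9, and the paper names it as KO-1, so the mutant group stands for 1 line. Knockout and control (wDah) share the white Dahomey background, into which all lines were backcrossed. Homozygous knockouts die as pupae, and the larvae were taken at 4 days after egg laying. How many larvae were pooled per library is not given in the sources used here. The submitters' design text speaks of technical replication whereas the paper calls the samples biologically independent, and the p-values below therefore measure only the spread between these libraries.

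In animal mitochondria, long precursor transcripts carry tRNAs between the mRNAs. RNase P cuts at the 5′ end of each tRNA and RNase Z at its 3′ end, which frees the tRNA and the mRNAs on both sides of it, and the tRNA then receives its CCA tail and its amino acid. A junction with a tRNA is called canonical in this sense, and the junction between mt:atp8/6 and mt:co3, which has none, is non-canonical. A translating mitoribosome holds tRNAs in its decoding sites, and tRNA reads from a monosome fraction can come from these or from tRNAs that sediment with the particle.

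In BDGP6.54 coordinates of the mitochondrial genome, mt:tRNA:Trp-TCA (FBgn0013709), which reads tryptophan codons including the UGA that is a stop codon elsewhere, spans bases 1264 to 1329. It begins where mt:nd2 ends, and its last 8 bases overlap mt:tRNA:Cys-GCA of the minus strand, which lies with mt:tRNA:Tyr-GTA of the same strand between it and mt:co1. The tRNA mt:tRNA:Leu-TAA (FBgn0013699), which reads the UUA and UUG leucine codons, spans 3012 to 3077, 2 bases after mt:co1 and 5 bases before mt:co2. The pair mt:tRNA:Lys-CTT (FBgn0013697, 3768 to 3838) and mt:tRNA:Asp-GTC (FBgn0013691, 3840 to 3906), for lysine and aspartate, fills the junction from mt:co2 to mt:atp8/6, with 1 base between them. Finally, mt:tRNA:Gly-TCC (FBgn0013694), which reads glycine codons, spans 5543 to 5607, 18 bases after mt:co3 and directly before mt:nd3. The RefSeq gene table gave the same start and end for all 5. The genes were 65 to 71 bases long.

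The 4 libraries held 8175475 and 8227127 counted reads in DmAngel KO and 4159707 and 1789947 reads in control, of which 64588 and 72923 reads in DmAngel KO and 58074 and 18633 reads in control were on mt-tRNAs. The 5 tRNAs had 12244 and 11865 reads in DmAngel KO and 5618 and 1738 reads in control. Reads on angel itself, the deleted gene, numbered 1 and 1 in DmAngel KO and 2 and 0 in control, too few to check the genotype labels. The larval serum protein Lsp2, a fat body product of the third instar, had 3 and 0 reads in DmAngel KO and 2899 and 511 in control, and the summed reads of all 4 larval serum protein genes were 20944 and 12086 in DmAngel KO and 408971 and 74198 in control. Larvae of both groups carry the same stage label, and the part of this gap in the tRNA values was not tested. The part of all counted reads on mt-mRNAs differed too, at 92.2% and 92.6% in DmAngel KO and 66.6% and 73.2% in control. In monosome fractions of larval mitochondria, fewer cells of a type, less RNA per cell and less carried-over nuclear-encoded RNA cannot be told apart.

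Together the 5 tRNAs took a larger part of all mt-tRNA reads in both DmAngel KO libraries than in either control, but not of the mt-tRNA reads other than those of the initiator and elongator mt:tRNA:Met-CAT. Their summed share of all mt-tRNA reads was 19.0% and 16.3% in DmAngel KO and 9.67% and 9.33% in control (17.6 ± 1.90% against 9.50 ± 0.245%, SD, n = 2 each). With mt:tRNA:Met-CAT left out of the total, the share was 25.5% and 19.8% in DmAngel KO and 24.5% and 20.9% in control (22.6 ± 4.07% against 22.7 ± 2.54%). On the first scale both DmAngel KO libraries lay above both controls, and on the second the groups overlapped, with the DmAngel KO libraries at either end. The two-sided exact permutation p was 0.333 with mt:tRNA:Met-CAT in the total, which is the smallest that 2 against 2 libraries allow, and 1 without it. Among the tRNAs that share this total, mt:tRNA:Met-CAT held 25.7% and 17.7% of mt-tRNA reads in DmAngel KO and 60.5% and 55.3% in control. It was 1 of 2 mt-tRNAs with both DmAngel KO libraries below both controls, beside mt:tRNA:Cys-GCA (0.347% and 0.498% in DmAngel KO against 0.858% and 1.52% in control), and 9 of the 16 mt-tRNAs other than these 5 and mt:tRNA:Met-CAT had both above.

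Among the single tRNAs, mt:tRNA:Leu-TAA had the most reads of the 5 in every library, 8158 and 6963 in DmAngel KO and 3160 and 695 in control. Its share of all mt-tRNA reads was 12.6% and 9.55% in DmAngel KO and 5.44% and 3.73% in control. Every DmAngel KO value lay above every control value, and the log2 fold change fitted with edgeR's quasi-likelihood test was 1.27 (SE 0.36, adjusted p = 0.0633). Without mt:tRNA:Met-CAT in the total, it was 17.0% and 11.6% in DmAngel KO and 13.8% and 8.35% in control. On that scale the groups overlapped, and the log2 fold change was 0.37 (SE 0.42, edgeR adjusted p = 0.807).

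The rarest of the 5, mt:tRNA:Trp-TCA, rested on 171 and 166 reads in DmAngel KO and 93 and 26 reads in control. It made up 0.265% and 0.228% of all mt-tRNA reads in DmAngel KO and 0.160% and 0.140% in control, and the groups did not overlap. The 95% Wilson interval of the shallowest library, control replicate 2, ran from 0.0952% to 0.204%, which reaches neither DmAngel KO share. It does overlap the interval of DmAngel KO replicate 2, 0.196% to 0.265%. Intervals of this kind account for counting error alone, and the paper's methods mention no molecular identifiers. The log2 fold change was 0.71 (SE 0.19, edgeR adjusted p = 0.0633). With mt:tRNA:Met-CAT left out, the share was 0.356% and 0.276% in DmAngel KO and 0.405% and 0.312% in control. These overlapped, with a log2 fold change of -0.19 (SE 0.31, edgeR adjusted p = 0.839).

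The aspartate tRNA resembled the tryptophan tRNA in this. Counts of 367 and 391 reads in DmAngel KO and 240 and 62 reads in control put mt:tRNA:Asp-GTC at 0.568% and 0.536% of all mt-tRNA reads in DmAngel KO and 0.413% and 0.333% in control. The groups stood apart, with a log2 fold change of 0.56 (SE 0.22, edgeR adjusted p = 0.122). Without mt:tRNA:Met-CAT the values were 0.765% and 0.651% in DmAngel KO and 1.05% and 0.745% in control, and control replicate 2 fell between the DmAngel KO libraries. The log2 fold change was then -0.34 (SE 0.33, edgeR adjusted p = 0.807).

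The neighbour of the aspartate tRNA, mt:tRNA:Lys-CTT, varied far more between replicates than between groups, with 787 and 2680 reads in DmAngel KO and 436 and 617 in control. Its share of all mt-tRNA reads was 1.22% and 3.68% in DmAngel KO and 0.751% and 3.31% in control. In both groups replicate 2 was the high library, and the groups overlapped. The log2 fold change was 0.27 (SE 0.96, edgeR adjusted p = 0.883), and without DmAngel KO replicate 2 it was -0.73. Without mt:tRNA:Met-CAT in the total, the share was 1.64% and 4.46% in DmAngel KO and 1.90% and 7.41% in control. The log2 fold change was -0.61 (SE 0.86, edgeR adjusted p = 0.816), and 0.68 without control replicate 2.

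For mt:tRNA:Gly-TCC, with 2761 and 1665 reads in DmAngel KO and 1689 and 338 reads in control, replicate 1 was the high library in both groups. It held 4.27% and 2.28% of all mt-tRNA reads in DmAngel KO and 2.91% and 1.81% in control. These values overlapped, and the log2 fold change was 0.47 (SE 0.47, edgeR adjusted p = 0.487). Without DmAngel KO replicate 1 it was -0.050. With mt:tRNA:Met-CAT left out, the share was 5.75% and 2.77% in DmAngel KO and 7.36% and 4.06% in control, and the log2 fold change was -0.42 (SE 0.54, edgeR adjusted p = 0.807).

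**Figure D1:**
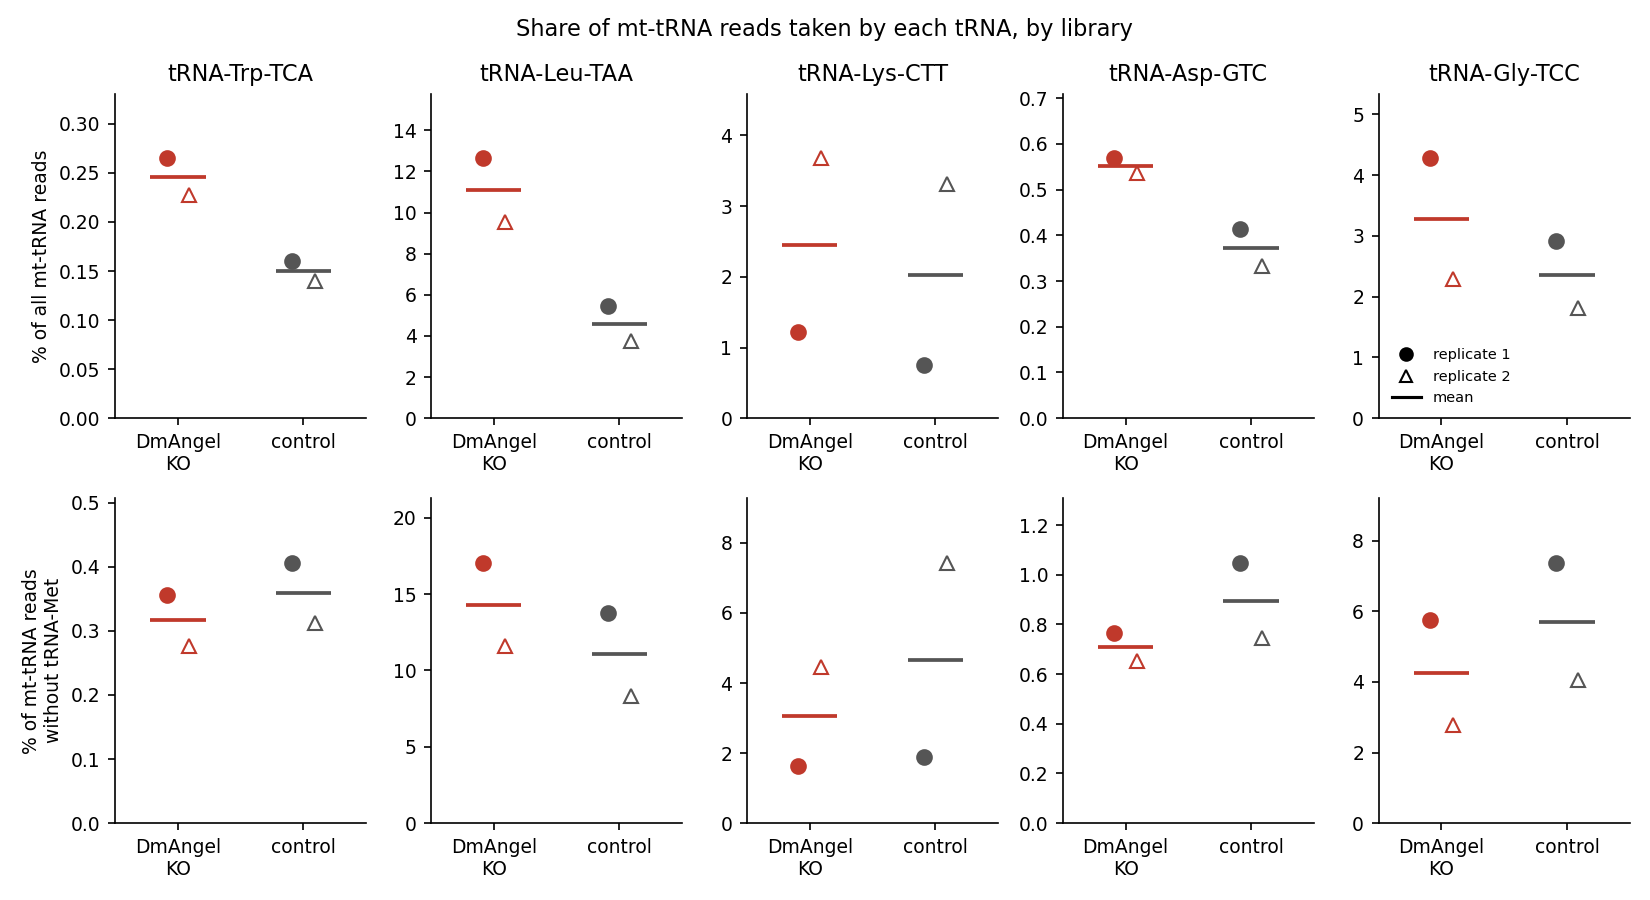
Share of mt-tRNA reads (%, y axes start at 0) of each of the 5 tRNAs in DmAngel KO (left in each panel) and control libraries, out of all mt-tRNA reads (top row) and with mt:tRNA:Met-CAT left out of the total (bottom row). Circles are replicate 1, triangles replicate 2 and bars the mean of 2 libraries: in the top row the tryptophan, leucine and aspartate tRNAs do not overlap between groups, and in the bottom row all 5 do.

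Of the 5 tRNAs, 0 passed an adjusted p of 0.05 in either direction by edgeR as a share of all mt-tRNA reads, against 9.09% of the 22 mt-tRNAs called higher and 0% called lower. At an unadjusted p of 0.05, 2 of the 5 passed as higher, mt:tRNA:Leu-TAA and mt:tRNA:Trp-TCA, close to the 36.4% of the 22 that did so. DESeq2 called 1 of the 5, mt:tRNA:Leu-TAA (DESeq2 adjusted p = 0.0386), and 22.7% of the 22 as higher. In 3 of the 5, both DmAngel KO libraries were above both controls, which was also the case for 54.5% of the 22. With mt:tRNA:Met-CAT left out of the total, edgeR called 0 of the 5, against 0% of the 22 called higher and 9.09% called lower. At an unadjusted p of 0.05, 0 of the 5 passed, against 0% of the 22 higher and 13.6% lower, and DESeq2 called 0 of the 5, against 0% higher and 9.09% lower. None of the 5 had groups apart on that scale, on which 13.6% of the 22 had both DmAngel KO libraries above and 18.2% both below the controls.

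The paper describes a pair of independent profiling experiments with a control and a knockout library each, and it does not say whether the replicate numbers stand for them. Read as pairs, all 5 tRNAs had a higher share of all mt-tRNA reads in the DmAngel KO library of each number, as did 72.7% of the 22. Without mt:tRNA:Met-CAT, mt:tRNA:Leu-TAA was higher in both numbers and the other 4 were lower in both, against 27.3% of the 22 higher and 54.5% lower in both. With the replicate number as a block, edgeR called 3 of the 5 higher as shares of all mt-tRNA reads, against 63.6% of the 22. These were mt:tRNA:Trp-TCA (log2 fold change 0.72, edgeR adjusted p = 1.27e-05), mt:tRNA:Leu-TAA (1.28, adjusted p = 0.00117) and mt:tRNA:Asp-GTC (0.56, adjusted p = 0.00176). With the block in the model, 4 libraries leave little residual freedom per tRNA, so these p-values lean on variance pooled over the 22 mt-tRNAs. The smallest, that of the tryptophan tRNA, rests on 26 to 171 reads a library. Without mt:tRNA:Met-CAT the block gave 1 call of the 5, mt:tRNA:Asp-GTC as lower (-0.34, edgeR adjusted p = 0.0287), against 27.3% of the 22 called lower and 13.6% called higher.

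The scale set the sign of most of these differences, and so each tRNA was also placed against the median of the 22. That median log2 fold change was 0.74 as a share of all mt-tRNA reads and -0.15 with mt:tRNA:Met-CAT left out. The 5 tRNAs had a median of 0.56 on the first scale and -0.34 on the second, against 0.83 and -0.07 for the 16 mt-tRNAs other than these and mt:tRNA:Met-CAT. Relative to the median of the 22, mt:tRNA:Leu-TAA lay 0.53 higher on the first scale and 0.52 higher on the second, rank 5 of the 22 fold changes on both. The other 4 lay at or below the median, mt:tRNA:Trp-TCA by -0.03 and -0.04, mt:tRNA:Asp-GTC by -0.18 and -0.19, mt:tRNA:Gly-TCC by -0.27 and -0.27, and mt:tRNA:Lys-CTT by -0.47 and -0.45. These relative positions are descriptions with no test of their own. The scales share the same counts and differ only in the total, so the positions stay nearly the same by construction.

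**Figure D2:**
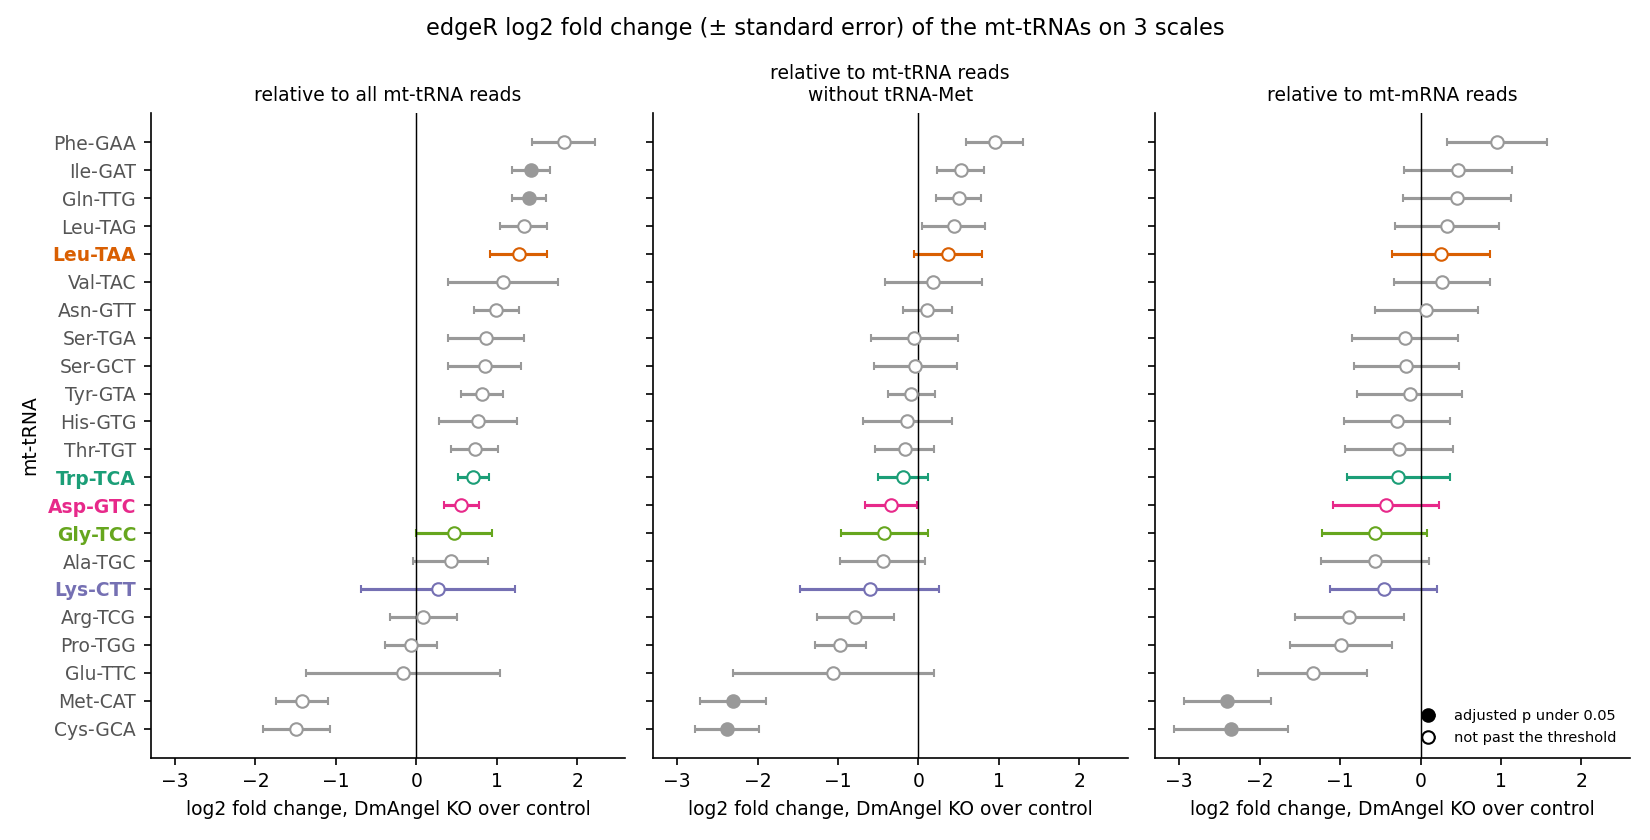
Fitted log2 fold change, DmAngel KO over control, of the 22 mt-tRNAs relative to all mt-tRNA reads (left), to mt-tRNA reads without mt:tRNA:Met-CAT (middle) and to mt-mRNA reads (right), with bars of 1 standard error, the 5 tRNAs in colour and filled points for an adjusted p under 0.05 by edgeR. The scales share the same counts and differ only in the total, so the whole column shifts nearly alike. The distance of the leucine tRNA above the median of the 22 (0.53, 0.52 and 0.53) is therefore nearly fixed by construction.

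The mRNA footprints of the same monosomes gave another scale, which asks how many tRNA reads came with a given number of mRNA reads. For every 1000 mt-mRNA reads, those of mt:tRNA:Leu-TAA numbered 1.08 and 0.914 in DmAngel KO and 1.14 and 0.531 in control, and mt:tRNA:Gly-TCC had 0.366 and 0.218 in DmAngel KO and 0.610 and 0.258 in control. For mt:tRNA:Lys-CTT there were 0.104 and 0.352 reads in DmAngel KO and 0.157 and 0.471 in control. In these 3 tRNAs the groups overlapped.

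The same held for the rare ones. On this scale mt:tRNA:Asp-GTC had 0.0487 and 0.0513 in DmAngel KO and 0.0867 and 0.0473 in control, and mt:tRNA:Trp-TCA had 0.0227 and 0.0218 in DmAngel KO and 0.0336 and 0.0198 in control. For both, the DmAngel KO libraries lay close together between the controls. The log2 fold changes were 0.26 for the leucine, -0.28 for the tryptophan, -0.43 for the aspartate, -0.46 for the lysine and -0.57 for the glycine tRNA, with standard errors of 0.61 to 0.66. With mt:cytb left out of the mt-mRNA total, 4 of these turned positive, to 0.44 for the tryptophan, 0.30 for the aspartate, 0.29 for the lysine and 0.13 for the glycine tRNA. By edgeR 0 of the 5 passed (adjusted p = 0.847 for each), 0 had an unadjusted p under 0.05 and DESeq2 called 0. Of the 22, 0% were higher and 9.09% lower by each of these 3 counts. The mt-mRNAs themselves were 92.2% and 92.6% of all counted reads in DmAngel KO and 66.6% and 73.2% in control.

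Each tRNA was then set against the mRNA cut from the same precursor on either side of it, which gave 10 ratios. In 3 of them both DmAngel KO libraries were above both controls, and in 7 the groups overlapped. All 3 were ratios to mt:co1 or mt:nd2, whose shares of mt-mRNA reads were lower in DmAngel KO, as given below. The shares of mt:co3 and mt:nd3 were lower as well, and the ratios of the glycine tRNA to them overlapped. Ratios of the other mt-tRNAs to these mRNAs were not computed, so the count has no background share beside it. Per 1000 reads of mt:co1, the mRNA before it, which encodes the catalytic subunit of cytochrome c oxidase, mt:tRNA:Leu-TAA had 13.4 and 10.2 reads in DmAngel KO and 5.03 and 2.15 in control. Per 1000 reads of mt:co2, the mRNA after it, it had 13.0 and 11.3 in DmAngel KO and 12.9 and 5.72 in control. The leucine tRNA thus stood apart between groups against the mRNA on one side and overlapped against that on the other.

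The other ratios that stood apart were those of the tryptophan tRNA. mt:tRNA:Trp-TCA had 0.280 and 0.244 reads per 1000 reads of mt:co1 in DmAngel KO and 0.148 and 0.0806 in control. Against mt:nd2, a complex I subunit mRNA, it had 2.19 and 3.05 reads per 1000 in DmAngel KO and 1.56 and 1.28 in control. The denominators differed between groups as well. As a share of mt-mRNA reads, mt:co1 had 8.10% and 8.93% in DmAngel KO and 22.7% and 24.6% in control, and mt:nd2 had 1.03% and 0.713% in DmAngel KO and 2.15% and 1.56% in control. For mt:co2 the shares were closer, 8.31% and 8.06% in DmAngel KO and 8.85% and 9.27% in control. Shares of mt:co3 were 7.25% and 6.76% in DmAngel KO and 14.8% and 16.7% in control. Those of mt:nd3 were 0.683% and 0.747% in DmAngel KO and 1.55% and 1.59% in control. For mt:atp8/6 they overlapped, at 18.3% and 13.0% in DmAngel KO and 22.7% and 17.4% in control.

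In the junction from mt:co2 to mt:atp8/6, whose last mRNA encodes subunits of ATP synthase, neither tRNA stood apart. Per 1000 reads of mt:atp8/6, mt:tRNA:Lys-CTT had 0.571 and 2.70 reads in DmAngel KO and 0.694 and 2.71 in control, and mt:tRNA:Asp-GTC had 0.266 and 0.394 in DmAngel KO and 0.382 and 0.273 in control. Per 1000 reads of mt:co2, the lysine tRNA had 1.26 and 4.36 reads in DmAngel KO and 1.78 and 5.08 in control, and the aspartate tRNA had 0.586 and 0.637 in DmAngel KO and 0.980 and 0.511 in control. Replicate 2 was again the high library of both groups for lysine. The glycine tRNA, which sits after mt:co3 and before the complex I mRNA mt:nd3, had 5.05 and 3.23 reads per 1000 reads of mt:co3 in DmAngel KO and 4.12 and 1.55 in control. Per 1000 reads of mt:nd3 it had 53.7 and 29.2 in DmAngel KO and 39.3 and 16.3 in control. Both overlapped. Over the 10 ratios the two-sided exact permutation p was 0.333 at the lowest, and after adjustment over the 10 no value was below 0.833.

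**Figure D3:**
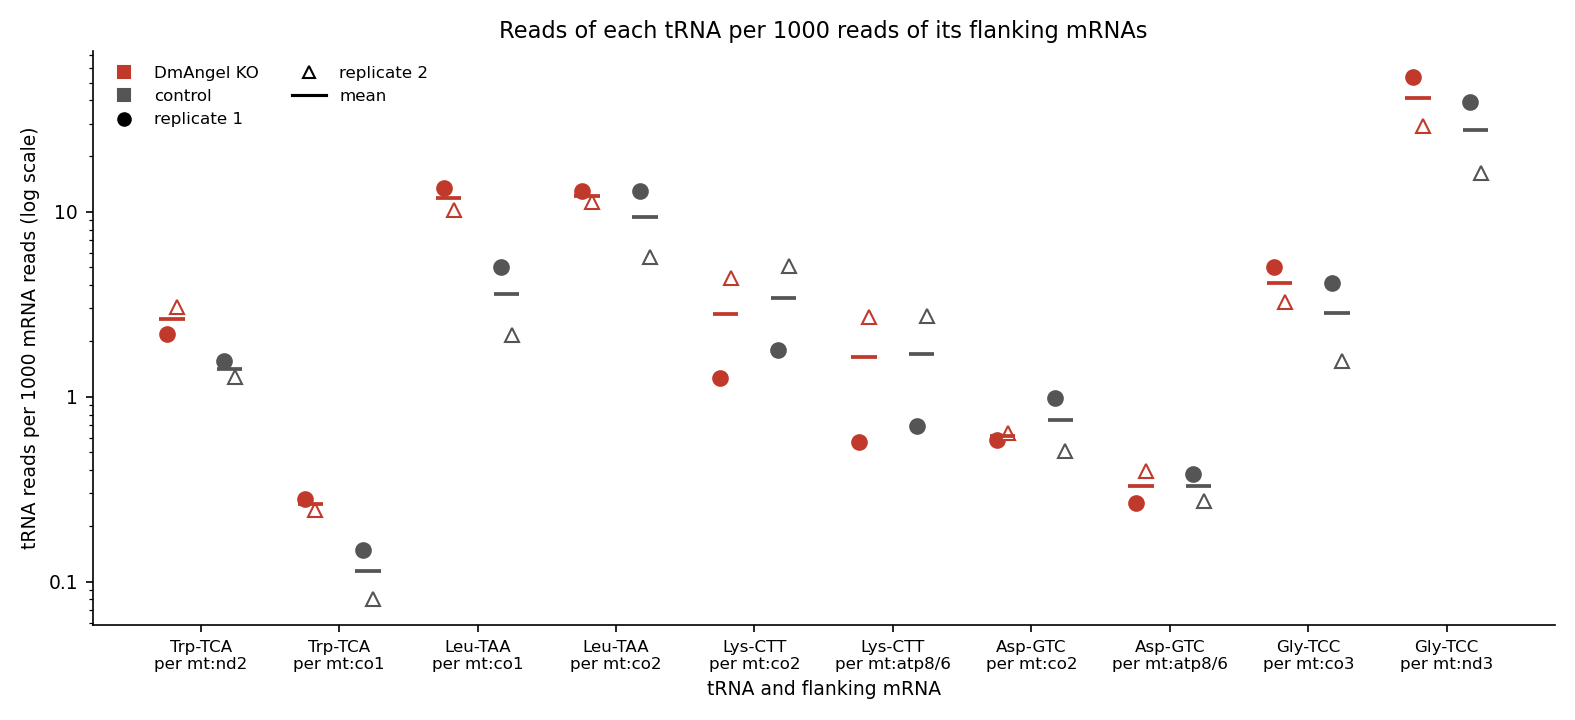
Reads of each tRNA per 1000 reads of the mRNA before and after it (log scale), with DmAngel KO in red on the left of each pair and control in grey, circles for replicate 1, triangles for replicate 2 and bars for the mean of 2 libraries. Both red points lie above both grey points for the tryptophan tRNA against mt:nd2 and mt:co1 and for the leucine tRNA against mt:co1, and in the other 7 pairs they overlap.

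The 5 tRNAs differed from each other far more than the groups did. Scaled by the length of the counted entry, which is the gene with its CCA tail, and expressed as a share without mt:tRNA:Met-CAT, mt:tRNA:Leu-TAA had 17.1% and 11.9% in DmAngel KO and 13.9% and 8.51% in control, and ranked between 2 and 5 of the 22 in each library. Next came mt:tRNA:Gly-TCC with 5.89% and 2.88% in DmAngel KO and 7.53% and 4.20% in control, and mt:tRNA:Lys-CTT with 1.54% and 4.25% in DmAngel KO and 1.79% and 7.04% in control. These neighbours in the order did not differ beyond their spread in either group.

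The lowest were mt:tRNA:Asp-GTC with 0.760% and 0.656% in DmAngel KO and 1.04% and 0.748% in control, and mt:tRNA:Trp-TCA with 0.359% and 0.283% in DmAngel KO and 0.408% and 0.318% in control. In both groups the libraries of the aspartate tRNA lay below all those of the lysine tRNA and above all those of the tryptophan tRNA, which ranked 21 or 22 of the 22 in every library. The leucine and glycine tRNAs did not overlap in either group. How far length-scaled read counts follow tRNA amounts was not tested, since RNase T1 and the size selection act on each tRNA before it is counted.

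Replicates of 1 group differed unevenly across the 5. With mt:tRNA:Met-CAT left out of the total, the lysine tRNA differed 2.72-fold between the DmAngel KO libraries and 3.90-fold between the controls, the second widest gap of the 22 mt-tRNAs in both groups, and replicate 2 was higher in each. The glycine tRNA differed 2.08-fold in DmAngel KO and 1.81-fold in control, with replicate 1 the higher, and the leucine tRNA 1.47-fold and 1.65-fold in the same direction. The aspartate tRNA, by 1.17-fold and 1.40-fold, and the tryptophan tRNA, by 1.29-fold and 1.30-fold, varied least. So mt:tRNA:Lys-CTT and mt:tRNA:Asp-GTC, 1 base apart in the precursor, had opposite replicate gaps. The lysine tRNA had 2.14 and 6.85 reads per read of the aspartate tRNA in DmAngel KO and 1.82 and 9.95 in control.

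Ratios among the 5 tRNAs need no total, so mt:tRNA:Met-CAT does not enter them. The leucine tRNA had 22.2 and 17.8 reads per read of the aspartate tRNA in DmAngel KO and 13.2 and 11.2 in control, and 2.95 and 4.18 reads per read of the glycine tRNA in DmAngel KO and 1.87 and 2.06 in control. Reads of the tryptophan tRNA per read of the leucine tRNA were 0.0210 and 0.0238 in DmAngel KO and 0.0294 and 0.0374 in control. In these 3 ratios, which all share the leucine count, the groups stood apart, with relatively more leucine tRNA reads in DmAngel KO. Reads of the tryptophan tRNA per read of the aspartate tRNA were 0.466 and 0.425 in DmAngel KO and 0.388 and 0.419 in control, which also stood apart (means 0.445 and 0.403). Of the 10 ratios, the 4 that stood apart reached the smallest two-sided exact permutation p, 0.333, and so none could pass the threshold. Ratios among the other mt-tRNAs were not computed, so this count has no background share beside it.

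The pattern of each tRNA over the 4 libraries was compared with that of the other 21 mt-tRNAs by the Euclidean distance between log2 shares without mt:tRNA:Met-CAT, each centred on its own mean. The nearest to mt:tRNA:Leu-TAA was mt:tRNA:Leu-TAG, which reads the other leucine codons, at 0.17, with mt:tRNA:Ser-TGA next at 0.49, against a median of 0.76 to the 21. For mt:tRNA:Trp-TCA the nearest were mt:tRNA:Thr-TGT at 0.14 and mt:tRNA:Asp-GTC at 0.19 (median 0.75), and for mt:tRNA:Asp-GTC they were mt:tRNA:Trp-TCA at 0.19 and mt:tRNA:Thr-TGT at 0.28 (median 0.82). Those 3 tRNAs were thus near each other. The nearest to mt:tRNA:Gly-TCC were mt:tRNA:His-GTG at 0.37 and mt:tRNA:Ser-GCT at 0.38 (median 1.00). No close match was found for mt:tRNA:Lys-CTT, whose nearest were mt:tRNA:Val-TAC at 0.95 and mt:tRNA:Pro-TGG at 1.63 (median 2.23). Distances rest on 4 libraries that share the same totals and are a description. They take no account of counting error, and mt:tRNA:Trp-TCA and mt:tRNA:Leu-TAG each had only 26 reads in control replicate 2.

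**Figure D4:**
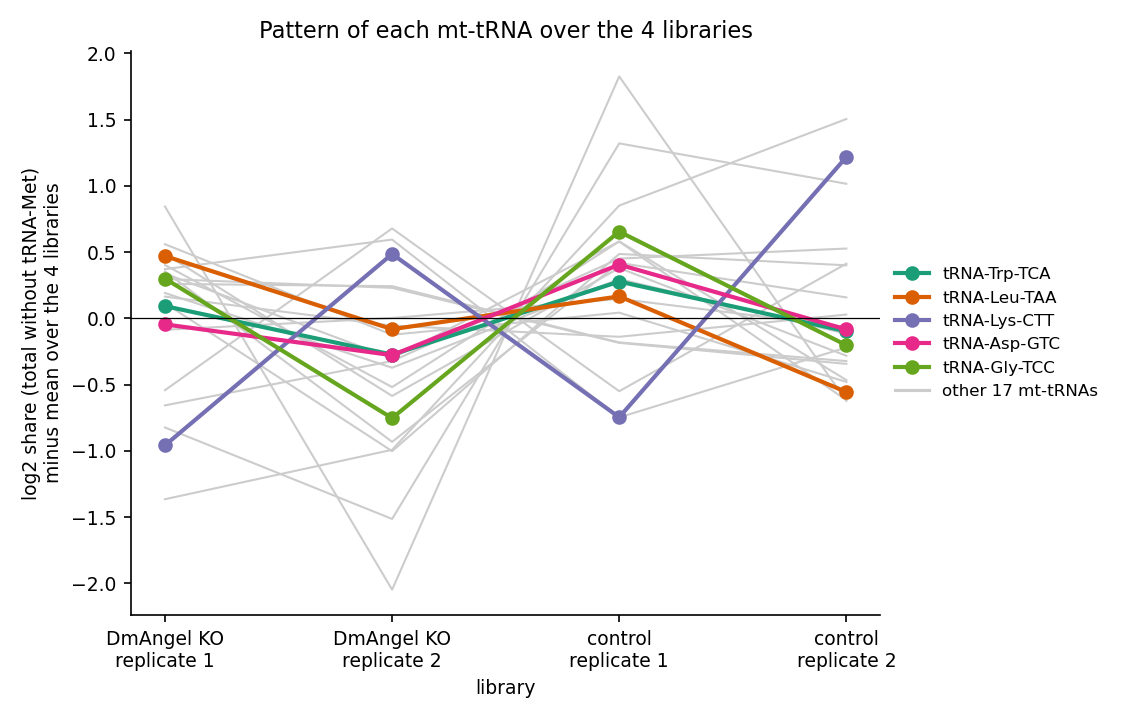
Log2 share of mt-tRNA reads without mt:tRNA:Met-CAT, minus the mean over the 4 libraries, for the 5 tRNAs (coloured) and the other 17 mt-tRNAs (grey), by library, DmAngel KO on the left. The lysine tRNA is high in replicate 2 of both groups and low in replicate 1 of both, and the other 4 coloured lines run higher in replicate 1 than in replicate 2.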

How the data were processed

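The authors merged and trimmed read pairs, removed reads matching non-coding RNA, aligned the rest with Bowtie2 to the sense strand of Ensembl transcripts with edited mitochondrial entries (CCA added to each tRNA), and deposited raw counts per entry (BDGP6 per the processing notes). How reads were counted is not given in the sources used here. Whether whole tRNAs or fragments were read cannot be told from counts.

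Deposited counts of the 22 mt-tRNAs were tested with edgeR 4.0.16 in R 4.3.3 (quasi-likelihood test, Benjamini-Hochberg over the 22, threshold 0.05, no filter, no normalization factors). Library sizes were the sums over all mt-tRNAs, over 21 without mt:tRNA:Met-CAT, or over the 11 mt-mRNAs. Standard errors given with edgeR fold changes are the absolute log2 fold change divided by the square root of the F statistic. DESeq2 1.42.0 was the alternative. Single values were compared with two-sided exact permutation tests. The script was tested on simulated data for shares of all mt-tRNA reads. At a true log2 fold change of 1, edgeR recovered 3.5% of the changed entries and DESeq2 13.5%. At a true log2 fold change of 2, edgeR recovered 48.5% and DESeq2 81%. A tRNA that was not called can therefore still differ between the groups. Of 680 unchanged entries, edgeR called 0 and DESeq2 6 at a true log2 fold change of 1. At 2, edgeR called 4 of 680 and DESeq2 14. The simulated counts had a common dispersion of 0.161 and no effect shared by replicate number, unlike these libraries. A floor of 3 counts was 0.00411% to 0.0161% of mt-tRNA reads.

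Named genes were the 5 tRNAs, mt:tRNA:Met-CAT, the flanking mRNAs, the 2 nearest patterns of each tRNA, angel and fixed tissue markers. Marker sums other than those in the text were, in DmAngel KO and in control, 14 and 10 against 364 and 72 reads (yolk proteins), 3264 and 1256 against 2063 and 741 (muscle), and 1788 and 1424 against 9737 and 2566 (gut). The members and lists were chosen with earlier results of these data known. Replicates differed beyond sampling noise (chi-square 8847 in DmAngel KO and 2131 in control, 21 degrees of freedom), so each library was counted. Pairing was checked by the correlation of replicate differences between groups over the 22 mt-tRNAs, which was 0.89 with only 2 pairs. The replicate numbers are from the labels, and their tie to the paper's 2 experiments is not stated, so the block was an alternative. Coordinates came from the BDGP6.54 annotation.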

Additional observations from a re-analysis of the deposited data

How the results depend on the processing

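Precision was limited by 2 libraries a group and by the shallow control replicate 2. As shares of all mt-tRNA reads, the fold changes were negative with TMM factors for the tryptophan (-0.22), lysine (-0.61), aspartate (-0.36) and glycine (-0.48) tRNAs, and with median-of-ratios factors (-0.029, -0.46, -0.17 and -0.30 in that order), scalings that centre on the other mt-tRNAs, whereas mt:tRNA:Leu-TAA stayed positive. Per mt-mRNA read, they were positive with mt:cytb left out of the total for the tryptophan (0.44), lysine (0.29), aspartate (0.30) and glycine (0.13) tRNAs, and with the total of all entries for the tryptophan tRNA (0.14). The cause was not tested.

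Leaving out each library in turn gave 0 calls among the 5 on all 3 scales. The log2 fold changes then ranged, as shares of all mt-tRNA reads, from -0.73 to 1.70 for the lysine and from -0.050 to 0.85 for the glycine tRNA. Without mt:tRNA:Met-CAT they ranged from -0.39 to 0.018 (tryptophan), from 0.055 to 0.78 (leucine), from -0.56 to -0.073 (aspartate), from -1.50 to 0.68 (lysine) and from -1.04 to 0.070 (glycine). Per mt-mRNA read they ranged from -0.59 to 0.16 (tryptophan), from -0.19 to 0.91 (leucine), from -1.59 to 0.53 (lysine), from -0.79 to 0.079 (aspartate) and from -1.06 to 0.18 (glycine). Calls among the 22, which were 2 on each scale, ranged from 0 to 0 as shares of all mt-tRNA reads, from 0 to 2 without mt:tRNA:Met-CAT and from 0 to 3 per mt-mRNA read. As shares of all mt-tRNA reads they were 7 with DESeq2 (1 of the 5), 6 with a dispersion from all entries and 6 with one from all mtDNA-encoded entries, 1 with median-of-ratios factors, and 0 among the 16 tRNAs with a mean of at least 500 counts. That filter gave 0 calls without mt:tRNA:Met-CAT and 1 per mt-mRNA read. Per mt-mRNA read there was 1 call with mt:cytb left out of the total and 1 with the total of all entries.

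With the replicate number as a block, calls as shares of all mt-tRNA reads were 3 of the 5 and 16 of the 22, and without mt:tRNA:Met-CAT 1 of the 5 and 9 of the 22. The block changed no other call of the 5. The ratios to flanking mRNAs have no call to lose. Leaving out 1 library turned the sign of the log2 ratio for 5 of the 10, which ranged from -0.083 to 1.09 for the leucine tRNA per mt:co2, from -1.45 to 0.66 and from -1.58 to 1.24 for the lysine tRNA per mt:co2 and per mt:atp8/6, and from -0.68 to 0.26 and from -0.30 to 0.28 for the aspartate tRNA per mt:co2 and per mt:atp8/6. The 3 ratios whose groups stood apart stayed positive, at 0.63 to 2.45. The summed share ranged from 0.78 to 1.00 with mt:tRNA:Met-CAT in the total and from -0.20 to 0.17 without it.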
